A study of Nasonia vitripennis with 23 samples.

Results

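Dnmt1a was the 1 row, of 14131 in the table of counts, whose ID begins with Dnmt. The gene encodes a DNA methyltransferase of the Dnmt1 family. No other methyltransferase of DNA is given a Dnmt symbol in that table, so that levels of further copies relative to Dnmt1a were not analysed here. RNA had been extracted from pools of the heads of 12 AsymC females of *Nasonia vitripennis*, a strain cured of *Wolbachia*. After a host to feed on and then honey, each of these females had been left for 3 h with 3 blowfly pupae as hosts, either alone (single-foundress) or with 4 (five-foundress) or 9 (10-foundress) co-foundresses of the red-eyed STDR strain, whose own heads were not sampled. All groups thus had hosts to lay on, and none was kept without them. The libraries, each from 1 pool, numbered 8 for single-foundress, 7 for five-foundress and 8 for 10-foundress females, and the study left single-foundress replicate 2 out of its tests as an outlier, so that 22 libraries were tested here as well.

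DNA methyltransferases place methyl groups on cytosine, in insects mostly where a guanine follows and mostly within the transcribed parts of genes. Enzymes of the Dnmt1 family copy an existing pattern onto the new strand after replication, and their level in animals is usually high where cells divide, as in the germ line and the early embryo. *Nasonia* has such a methylation system, and DNA methylation has been linked to sex allocation in this wasp, that is, to how a foundress divides her eggs between sons and daughters. The comparison below asks whether the level of Dnmt1a mRNA in the head differed with foundress number.

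The 22 libraries held 25194329 to 69696501 counted reads each, of which Dnmt1a received between 532 and 1821 (median 826). At these counts, counting error alone amounts to between 2.34% and 4.34% of a value. The levels that follow are CPM, that is, counts divided by the library total and put on a common scale, after correction with TMM factors, which adjust totals for differences in composition.

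In the single-foundress group Dnmt1a stood at 17.7 CPM in replicate 1, 31.2 in replicate 3, 24.2 in replicate 4, 27.9 in replicate 5, 27.6 in replicate 6, 19.9 in replicate 7 and 24.0 in replicate 8. In the five-foundress group it stood at 29.9 CPM in replicate 10, 32.9 in replicate 11, 20.0 in replicate 12, 23.9 in replicate 13, 24.0 in replicate 14, 23.3 in replicate 15 and 24.0 in replicate 16. In the 10-foundress group it stood at 19.2 CPM in replicate 17, 33.5 in replicate 18, 24.4 in replicate 19, 21.9 in replicate 20, 27.6 in replicate 21, 25.5 in replicate 22, 36.9 in replicate 23 and 21.9 in replicate 24. High and low pools were thus found in every group. The highest 3 pools were 10-foundress replicates 23 and 18 and five-foundress replicate 11, the lowest 3 were single-foundress replicate 1, 10-foundress replicate 17 and single-foundress replicate 7, and 16 of the 22 pools lay in the range from 20.0 to 31.2 CPM that the 3 groups share.

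**Figure D1:**
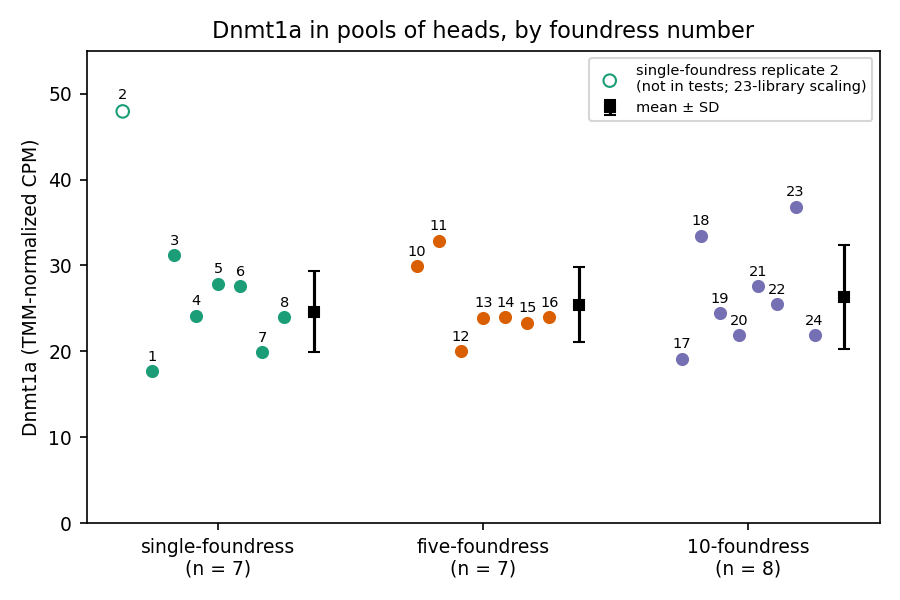
Dnmt1a level of each pool of 12 heads in TMM-normalized CPM, by foundress number, with replicate numbers beside the points and black squares for the mean ± SD of the tested libraries. The groups overlap, with means of 24.6, 25.4 and 26.3 CPM, and single-foundress replicate 2, drawn as an open circle at 47.9 CPM on the scaling of all 23 libraries, lies above every other pool.

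Dnmt1a did not pass the test in any comparison of foundress numbers. Single-foundress pools averaged 24.6 ± 4.71 CPM (SD, n = 7), five-foundress pools 25.4 ± 4.39 CPM (SD, n = 7) and 10-foundress pools 26.3 ± 6.08 CPM (SD, n = 8). The means followed the number of foundresses, but each step was smaller than 1 SD of any group. The medians of 24.2, 24.0 and 24.9 CPM did not keep that order, with the five-foundress group lowest.

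From single- to five-foundress pools, Dnmt1a had a log2 fold change of 0.05, with a standard error of 0.15 and an adjusted p of 1 (quasi-likelihood test of edgeR with Benjamini and Hochberg adjustment). The 95% confidence interval of the fold ran from 0.832 to 1.28. The direction turned in 5 of 31 alternatives, to -0.02 without single-foundress replicate 1, -0.03 without five-foundress replicate 11, -0.04 with limma-voom, and -0.12 in edgeR and -0.11 in DESeq2 with all 23 libraries. Over all genes, 0 of 13599 (0%) passed an adjusted p of 0.05 in this comparison, with 240 (1.76%) at an unadjusted p below 0.05 in edgeR and 223 in DESeq2. The unadjusted p of Dnmt1a was 0.760, so that it was not among them. With a low pool, five-foundress replicate 12, and a high one, replicate 11, on either side of 5 pools between 23.3 and 29.9 CPM, the five-foundress group showed the lowest coefficient of variation of the 3 groups, at 17.2% against 19.1% in the single- and 23.1% in the 10-foundress group.

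In the five- versus 10-foundress comparison the log2 fold change of Dnmt1a was also 0.05 (standard error 0.15, adjusted p = 1 from edgeR), with a 95% confidence interval of the fold from 0.840 to 1.28. Here 0 genes (0%) passed the adjusted threshold and 246 (1.81%) had an unadjusted p below 0.05 in edgeR, against 204 in DESeq2. Dnmt1a had an unadjusted p of 0.733. The direction turned to -0.04 on the log2 scale without 10-foundress replicate 23, the pool with the highest level, and was 0.12 without five-foundress replicate 11.

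In the single- versus 10-foundress comparison, the widest contrast of the design, the log2 fold change of Dnmt1a was 0.10 (standard error 0.15, adjusted p = 0.956 from edgeR). The fold was 1.07, with a 95% confidence interval from 0.867 to 1.32. In this comparison 0 genes (0%) passed the adjusted threshold and 433 (3.18%) had an unadjusted p below 0.05 in edgeR, against 434 in DESeq2, whereas Dnmt1a had an unadjusted p of 0.514. The fold change rested in part on 10-foundress replicate 23, without which the value was 0.0049 on the log2 scale, and it was 0.0015 with limma-voom.

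For overall foundress number the adjusted p of Dnmt1a was 0.994 in edgeR, where 0 genes (0%) passed and 266 (1.96%) had an unadjusted p below 0.05, against 260 in DESeq2. As a numeric trend over 1, 5 and 10 foundresses, Dnmt1a changed by 0.011 on the log2 scale for each further foundress (95% confidence interval from -0.022 to 0.043, adjusted p = 0.962 from edgeR). Exact two-sided permutation tests of its log2 CPM returned p = 0.717 between single- and five-foundress pools, p = 0.812 between five- and 10-foundress pools and p = 0.585 between single- and 10-foundress pools, not adjusted for the 3 comparisons. Of the variance of log2 CPM between pools, 1.84% lay between the groups, where 9.52% would be expected with no difference at all (permutation p = 0.836, 100000 permutations). None of these tests shows that the groups were alike, and differences in either direction up to the bounds of the intervals remain possible.

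**Figure D2:**
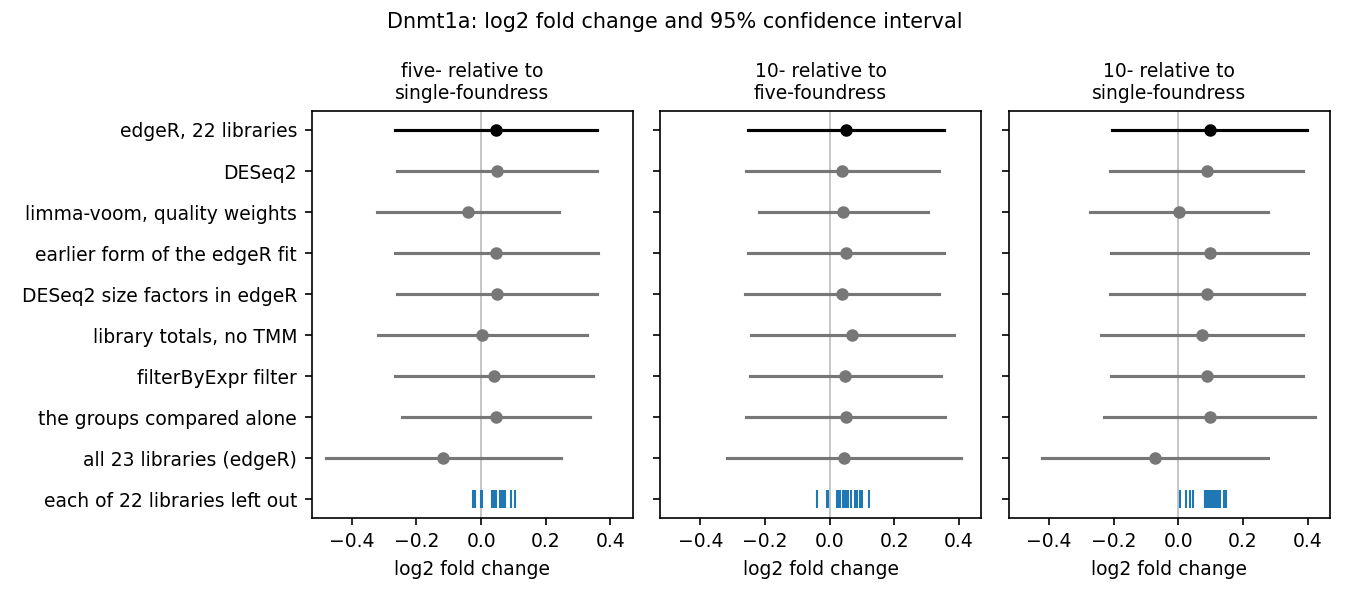
Log2 fold change of Dnmt1a (points) with its 95% confidence interval (lines) in the 3 pairwise comparisons, under the reported fit in black and the alternatives in grey, and blue ticks for the value with each of the 22 tested libraries left out in turn. Every interval drawn includes 0, and the estimates with all 23 libraries are negative in the comparisons that involve the single-foundress group, at -0.12 and -0.07.

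Most of the variation in Dnmt1a was between pools of the same foundress number. The level ranged 2.08-fold over the 22 libraries, with a coefficient of variation of 19.5%, well above the counting error of each pool. This spread was near the middle of that of other genes: of the 9301 genes that averaged at least 100 counts, 46.5% had a lower coefficient of variation, and their median was 20.4%. As these are whole heads in bulk, fewer cells that express a gene and less RNA per cell cannot be told apart. The study had balanced the females of each group over several days. No day, batch or extraction date is labelled for the pools, so that none could be entered in a fit.

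The level of Dnmt1a followed the main difference between pools. In a principal component analysis of the other 9300 genes above that mean, the first component held 33.2% of the variance, and the absolute Pearson correlation of Dnmt1a with it was 0.89 over the 22 libraries. It was 0.08 with the second component, which held 23.6%, and 0.07 with the third. Of the first component's variance, 5.95% lay between the foundress groups. Library totals moved with it too, with an absolute correlation of 0.62. Moderate correlations were therefore common, as the absolute correlation with Dnmt1a had a median of 0.49 over those 9300 genes, with 317 genes (3.41%) above 0.8 and 375 (4.03%) below -0.8.

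The gene most like Dnmt1a was LOC100121205, with a Pearson correlation of log2 CPM of 0.95 over the 22 libraries. It ranged from 3.37 CPM in single-foundress replicate 1, which also had the lowest Dnmt1a, through a median of 5.73 to 13.4 CPM in 10-foundress replicate 23, which had the highest. LOC100122692, LOC100121275, LOC100122888 and LOC100120948 followed, with correlations of 0.95, 0.95, 0.95 and 0.94. LOC100679408 ran most opposite, with a correlation of -0.93 and from 9.22 CPM in 10-foundress replicate 23 to 22.3 CPM in single-foundress replicate 7. LOC103317185 and LOC100679551 had -0.90 each. Within groups, as deviations from the group means, these 8 genes had correlations of 0.94 to 0.98 or -0.94 to -0.91. With 1.84% of the variance of Dnmt1a between groups, these values had little room to differ from those over all pools. The 8 genes were chosen as the extremes of all genes, so that no test is given, and the files pair none of them with a product name.

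Among genes of the methylation pathway fixed for this comparison, 2 could be matched by symbol. Mbd is named for the methyl-CpG-binding domain, by which proteins of that family attach to methylated DNA. Its level in the single-foundress group lay between 23.1 and 36.8 CPM with a median of 29.95, in the five-foundress group between 25.6 and 35.9 (median 29.1) and in the 10-foundress group between 23.9 and 35.2 (median 29.3). These ranges were nearly the same. Ahcy encodes adenosylhomocysteinase, which removes the by-product that methyltransferases leave behind when they use S-adenosylmethionine. Its level was more variable, from 23.7 to 74.6 CPM in the single-foundress group (median 47.7), from 32.4 to 61.8 in the five-foundress group (median 43.7) and from 30.9 to 108.2 in the 10-foundress group (median 35.8). The 10-foundress group held the highest pool of all, replicate 23, and yet had the lowest median.

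Neither passed the test, since 0 of the 2 genes rose and 0 fell in each of the 3 pairwise comparisons, and 0 had an unadjusted p below 0.05. Among all 13599 genes 0 passed as well, and only 1.76%, 1.81% and 3.18% had an unadjusted p below 0.05 in the single- versus five-, five- versus 10- and single- versus 10-foundress comparisons. The 0 of 2 thus does not set the pair apart. The median log2 fold change of the pair was -0.03 from single- to five-foundress pools, 0.05 from five- to 10-foundress pools and 0.03 from single- to 10-foundress pools, beside 0.0038, 0.011 and 0.0099 over all 13599 genes tested. The largest was that of Ahcy in the 10- relative to the five-foundress group, at 0.14 (standard error 0.27, adjusted p = 1 from edgeR).

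The relation of Dnmt1a to each of 8 measures was tested across the 22 libraries: Mbd, Ahcy, 5 short lists of cell markers and the library total. All relations but that with the cell division genes were chosen after the table had been seen, and the adjustment over the 8 relations does not cover that choice. Each permutation p tests against a correlation of 0. As the absolute correlation with Dnmt1a had a median of 0.49 over 9300 genes, a low p does not set a measure apart from other genes. With Ahcy the Pearson correlation was 0.56 (permutation p = 0.00725, adjusted 0.0116 over the 8 relations) and Spearman's rho was 0.57 (permutation p = 0.00729, adjusted 0.00972). Of the 9300 genes, 79.5% had a lower correlation with Dnmt1a than Ahcy. The relation no longer passed without 10-foundress replicate 23 alone (0.42, permutation p = 0.0583, adjusted 0.0666). It was 0.45 without the pools with the most extreme Ahcy, 10-foundress replicate 23 and single-foundress replicate 8, and 0.42, 0.56 and 0.67 within the single-, five- and 10-foundress groups. With Mbd the correlation was -0.11 (permutation p = 0.631, rho -0.22 with permutation p = 0.316, adjusted the same), and it was -0.32 without single-foundress replicates 1 and 8. Within groups it was 0.06, -0.70 and 0.12. Single-foundress replicate 1 and 10-foundress replicate 17 were the lowest 2 pools for Mbd, and for Dnmt1a they were the lowest of their groups.

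With the library total, on the log2 scale, the correlation of Dnmt1a was 0.58 (permutation p = 0.0041, adjusted 0.0082) and rho was 0.65 (permutation p = 0.00146, adjusted 0.00509). Without the most deeply sequenced pools, five-foundress replicates 16 and 11, it was 0.71, and within the 3 groups it was 0.50, 0.57 and 0.84. Pools with more counted reads thus tended to have a higher share of Dnmt1a reads. The part of depth in the relations of Dnmt1a to other genes was not tested.

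**Figure D3:**
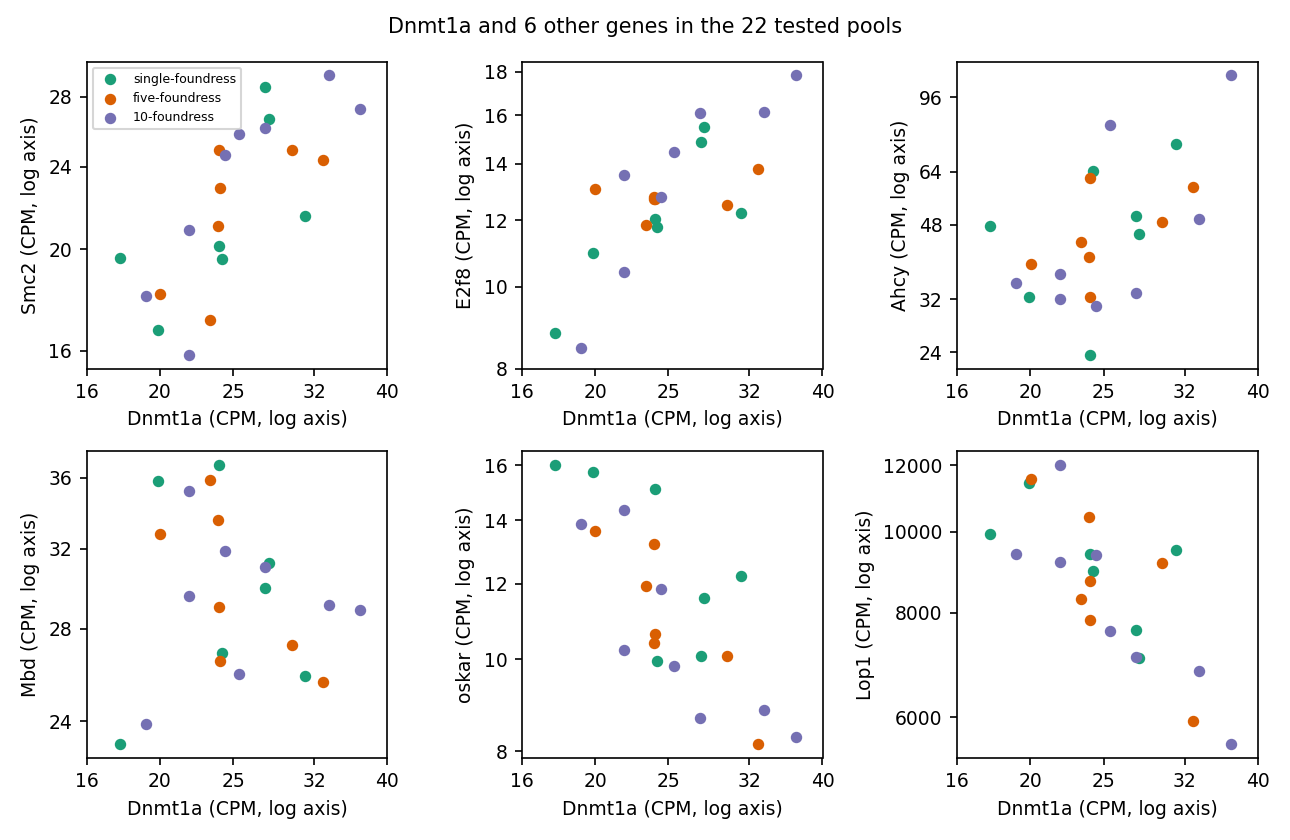
Level of 6 genes against that of Dnmt1a in the 22 tested pools, in CPM with both axes on a log scale, 1 point per pool coloured by foundress number. Smc2, E2f8 and Ahcy are higher where Dnmt1a is higher, oskar and Lop1 are lower, and Mbd shows little relation, with a correlation of -0.11. Smc2 and E2f8 have the highest correlations of 16 genes of DNA replication, repair and mitosis. Of those 16 correlations 10 are above 0, and the lowest is -0.65.

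The cell division genes cycB and Cdk1 had few counts in the tested heads. cycB, which encodes cyclin B of the mitotic kinase, had between 1 and 69 counts per library, with a median of 4.5, and Cdk1, the kinase itself, had between 9 and 48. In single-foundress replicate 3, five-foundress replicate 10 and 10-foundress replicate 18, cycB reached 1.32, 1.60 and 0.59 CPM, above the other tested pools of their groups, and Dnmt1a there stood at 31.2, 29.9 and 33.5 CPM. The highest Dnmt1a of the five- and 10-foundress groups was in other pools, replicate 11 (32.9 CPM) and replicate 23 (36.9 CPM). The mean log2 level of cycB and Cdk1 had a correlation of 0.67 with Dnmt1a (permutation p = 0.00058, adjusted 0.00232) and rho was 0.64 (permutation p = 0.00191, adjusted 0.00509). It was 0.73 without five-foundress replicate 10 and single-foundress replicate 3, and 0.83, 0.53 and 0.78 within the groups. At such counts the level of either gene in a pool is known only roughly.

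A wider list of 22 genes of DNA replication, repair and mitosis was put together by symbol, of which 16 averaged at least 100 counts. These did not move as 1 group with Dnmt1a, since 10 of the 16 correlations were above 0, beside 55.1% over all 9300 genes, and they ranged from -0.65 to 0.77. Their median was 0.39, beside 0.10 over all 9300 genes. E2f8, an E2F factor that restrains cell cycle genes in mammals, had 0.77, Smc2 of the condensin complex had 0.74 and Smc6 of the SMC5/6 complex had 0.73. E2f8 was lowest, at 8.47 CPM against a median of 12.8 over the 22 libraries, in 10-foundress replicate 17. Without that pool and single-foundress replicate 1, the pools in which Dnmt1a was lowest, the correlation of E2f8 was 0.68. At the other end, RPA2, a subunit of the protein that coats single-stranded DNA, had -0.65, fzy, which activates the anaphase-promoting complex, had -0.55 and the kinase gene Melk had -0.55. Of the 22 genes, 0 passed an adjusted p of 0.05 in any comparison of foundress numbers. At an unadjusted p below 0.05 there were 0 in the comparisons with the five-foundress group, while in the single- versus 10-foundress comparison Smc3 was higher (unadjusted p = 0.0458 from edgeR) and Melk lower (unadjusted p = 0.0496 from edgeR) in the 10-foundress group, both with an adjusted p of 0.952 from edgeR. Of all 13599 genes tested, 0 passed in any comparison. The share at an unadjusted p below 0.05 was 1.76% and 1.81% with the five-foundress group and 3.18% in the single- versus 10-foundress comparison. The median log2 fold change of the list in that comparison was 0.06, beside 0.0099 over all genes.

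**Figure D4:**
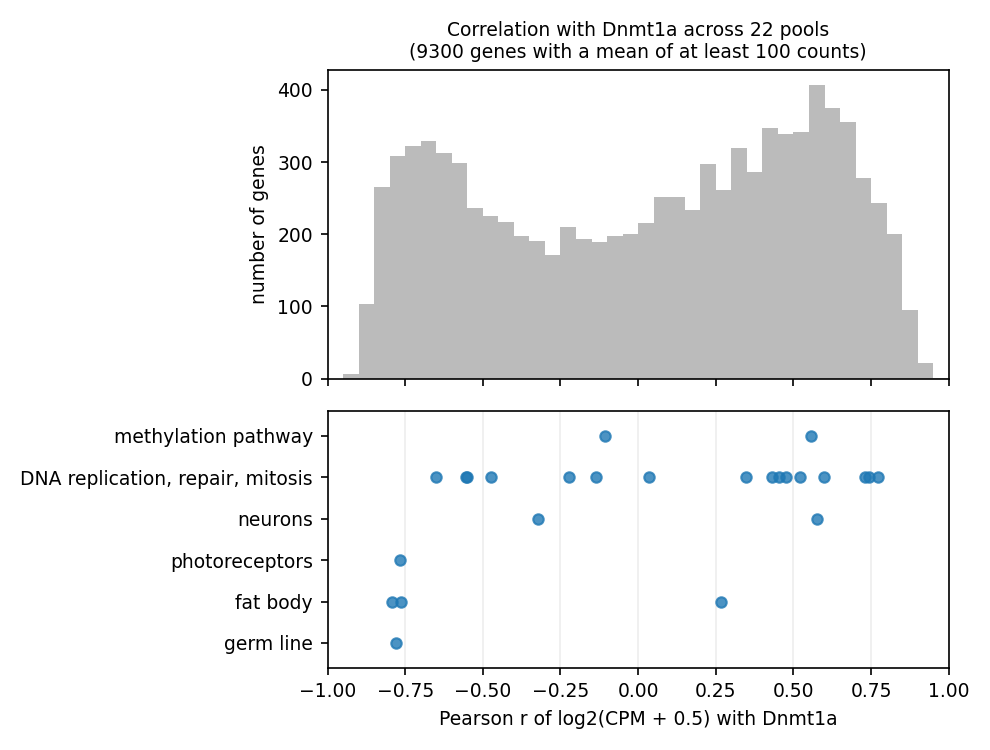
Pearson correlation with Dnmt1a of log2(CPM + 0.5) over the 22 tested pools, as a histogram of the number of genes for all 9300 other genes that average at least 100 counts (top) and as 1 point per gene for the lists of named genes above that mean (bottom). The histogram has a peak on either side of 0, and the 16 genes of DNA replication, repair and mitosis are spread from -0.65 to 0.77.

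Markers of head tissues had correlations with Dnmt1a in both directions, also among the markers of neurons and among those of fat body. Lop1, the long-wavelength opsin of the photoreceptors, ranged from 5579 CPM in 10-foundress replicate 23, the pool with the highest Dnmt1a, to 12025 CPM in 10-foundress replicate 24, with a correlation of -0.77 (permutation p = 3e-05, adjusted 0.00024) and rho of -0.75 (permutation p = 0.00014, adjusted 0.00112). It was -0.64 without 10-foundress replicate 23 and five-foundress replicate 11, and -0.62, -0.74 and -0.87 within the groups. Of the 9300 genes, 6.12% had a lower correlation with Dnmt1a than Lop1. The neuronal pair Syt1, a synaptic vesicle protein, and Para, a sodium channel, went different ways, with -0.32 and 0.57. Their mean had 0.47 (permutation p = 0.0269, adjusted 0.0307) and rho 0.39 (permutation p = 0.0754, adjusted 0.0862), which fell to 0.19 without single-foundress replicate 1 and 10-foundress replicate 17, so that this relation rested on those pools. Within the groups the mean had 0.46, 0.04 and 0.61.

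Of 3 hexamerins, storage proteins made in the fat body, Hex109 and Hex83 ran opposite to Dnmt1a, with -0.79 and -0.77, and Hex70b did not, with 0.27. The mean of the hexamerins had -0.49 (permutation p = 0.0207, adjusted 0.0276) and rho -0.57 (permutation p = 0.00602, adjusted 0.00972), with -0.31 without 10-foundress replicates 17 and 18 and -0.44, -0.48 and -0.61 within the groups. Without either of these alone the Pearson correlation no longer passed (-0.41, adjusted permutation p = 0.0837 without replicate 17, and -0.41, adjusted permutation p = 0.0755 without replicate 18). No marker of glia or muscle on the lists could be matched by symbol. The markers used here for neurons (Syt1 and Para), photoreceptors (Lop1) and fat body (the 3 hexamerins) were counted in every library. Their part in the differences of Dnmt1a between pools was not tested.

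Of the germ line genes, oskar ran opposite to Dnmt1a and nanos did not. oskar, which organizes the germ plasm in the egg, was counted 286 to 709 times per library in these heads, and ranged from 8.14 CPM in five-foundress replicate 11 through a median of 11.1 to 16.0 CPM in single-foundress replicate 1. The pool with the lowest oskar had the third highest Dnmt1a and the pool with the highest oskar the lowest Dnmt1a. The correlation of oskar with Dnmt1a was -0.78, and -0.80 within groups. nanos, a repressor of translation in germ cells, had 1 to 11 counts and a correlation of 0.16, in the other direction. The mean of both had -0.62 (permutation p = 0.00258, adjusted 0.00688) and rho -0.57 (permutation p = 0.00682, adjusted 0.00972), with -0.46 without single-foundress replicate 1 and five-foundress replicate 11 and -0.52, -0.66 and -0.72 within the groups.

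Single-foundress replicate 2, which was not tested, had 2633 counts of Dnmt1a, or 47.9 CPM when all 23 libraries were scaled together. This was 1.97 times the median of the other pools (24.3 CPM) and 1.31 times the highest of them (36.5 CPM). In the same library cycB stood at 88.6 CPM against at most 1.63 in the others, Cdk1 at 20.0 against at most 1.04, nanos at 21.6 against at most 0.255 and oskar at 43.1 against at most 16.2. Mbd, in contrast, was at 29.7 CPM, within the range of the other pools (23.4 to 37.4), as was Ahcy at 58.4 CPM (24.1 to 107.2). Of the 16 genes of DNA replication, repair and mitosis that averaged at least 100 counts, 12 were higher in this library than in every other, against 702 of the 9301 genes above that mean count of 100 (7.55%). That list was put together after the table had been seen, so that the 12 of 16 describe this library and are not a test. In the study, a smaller share of trimmed reads mapped to the genome from this library than from any other. The study proposes an anomaly in sequencing, which was not tested here.

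With this library in the fit, the log2 fold change of Dnmt1a turned to -0.12 (standard error 0.18, adjusted p = 1 from edgeR) in five-foundress pools and to -0.07 (standard error 0.17, adjusted p = 1 from edgeR) in 10-foundress pools, both against single-foundress pools, and the group mean of the single-foundress libraries was 27.6 ± 9.21 CPM (SD, n = 8). The relation of Dnmt1a to oskar went from -0.78 over 22 libraries to 0.11 over 23, whereas that to Lop1 stayed at -0.72. The part of the markers of dividing and germ line cells in the level of Dnmt1a in this library was not tested.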

How the data were processed

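Heads were pooled by 12 within foundress number, and polyadenylated RNA was sequenced as read pairs. For 23 libraries, gene-level read counts were deposited as raw values. To make them, the authors had kept reads of high mean quality, trimmed adapters with cutadapt 1.8.3, aligned the reads to Nvit 2.1 with TopHat2 2.0.14 and counted with HTSeq in union mode (version given in the submitters' processing notes as 6.0.1), which leaves out reads that fall on more than 1 gene. Use of the strand is not given in the sources used here. In a RefSeq table of a later assembly (Nvit_psr_1.1, in which 11586 of the 14131 rows matched by symbol), Dnmt1a overlaps 1 gene, LOC100122014, so that reads in the overlap may have been lost.

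Foundress number was tested as a factor, with the 3 groups in 1 fit, by the quasi-likelihood method of edgeR 4.0.16 under R 4.3.3, after TMM scaling and for genes with at least 1 read over the 22 libraries. Adjustment of p-values followed Benjamini and Hochberg over 13599 genes. DESeq2 1.42.0 and limma 3.58.1 (voom with sample quality weights) served for alternatives. Single-foundress replicate 2 was left out as in the study. Correlations used log2(CPM + 0.5), with 100000 permutations. The replicates are separate pools, so that the tests set differences between groups against the variation between pools.

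The members and the lists were chosen with earlier results of these data known. Genes were named if their ID begins with Dnmt, if they had the 5 highest or 3 lowest correlations with Dnmt1a, or if they stood on lists of pathway genes and cell markers. The list of DNA replication, repair and mitosis and the relations other than that with cell division were added after the table had been seen, and 1 gene of that list is not reported here. Further genes were chosen with their values in view. Gene lengths for Nvit 2.1 and sequences were not used here, so that levels are not compared between genes.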

Additional observations from a re-analysis of the deposited data

Results flagged for a closer look

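Within each group of 7 or 8 libraries, the gap of the highest or lowest library to its neighbour, as a share of the whole range, was compared with Dixon's 95% critical value for 13 genes (52 groups of values). Of these, 10 stood out, where chance alone marks about 1 in 20 independent groups. That rate cannot be set against the 10, since the genes were chosen with values in view, 5 of the 10 come from a library that the study had left out, and the groups with and without it share 7 libraries. For Dnmt1a it was single-foundress replicate 2 at 47.9 CPM, with a ratio of 0.571 against a critical value of 0.526. The same library stood apart for cycB at 88.6 CPM, Cdk1 at 20.0 CPM, oskar at 43.1 CPM and nanos at 21.6 CPM.

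Among the tested libraries cycB stood apart in single-foundress replicate 3 at 1.32 CPM (51 counts), in five-foundress replicate 10 at 1.6 CPM (69 counts) and in 10-foundress replicate 18 at 0.59 CPM (28 counts). Hex70b stood apart in five-foundress replicate 11 at 17.7 CPM and, when the 8 single-foundress libraries were scaled with all others, in single-foundress replicate 3 at 9.9 CPM. Dnmt1a itself had no library apart in any of the 3 groups of tested libraries.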

How the results depend on the processing

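Dnmt1a stayed above the adjusted threshold of 0.05 for every pair of groups and for overall foundress number under the 31 alternatives run for each of these tests, with adjusted p-values between 0.716 and 1. The direction of its small differences was not stable. Against single-foundress pools, with all 23 libraries, it was -0.117 in five-foundress and -0.073 in 10-foundress pools on the log2 scale in edgeR, -0.112 and -0.0744 in DESeq2, and -0.0742 and -0.044 as the difference used in the permutation tests. With limma-voom it was -0.0406 in five-foundress and 0.0015 in 10-foundress pools. With each library left out in turn, the log2 fold change lay between -0.0259 and 0.104 for 1 versus 5 foundresses, between -0.0392 and 0.123 for 5 versus 10 and between 0.0049 and 0.148 for 1 versus 10, and the differences in the permutation tests between -0.0224 and 0.111, between -0.0372 and 0.0988 and between 0.0129 and 0.146. The direction changed without single-foundress replicate 1 or five-foundress replicate 11 for 1 versus 5, and without five-foundress replicate 12 or 10-foundress replicate 18 or 23 for 5 versus 10. The causes were not tested.

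The coefficient of variation of Dnmt1a was 25.3% with all 23 libraries, against 17.5% to 20.0% with each library left out. The correlation with cell division genes stayed between 0.61 and 0.71 over its alternatives, while that with germ line genes turned to 0.47 with all 23 libraries. The relation to neuronal genes no longer passed without single-foundress replicate 1 (0.33) or 10-foundress replicate 17 (0.40) or 18 (0.41), that to fat body genes without 10-foundress replicate 17 (-0.41) or 18 (-0.41), and that to Ahcy without 10-foundress replicate 23 (0.42). Over all genes, 39 passed for 1 versus 10 foundresses and 77 for overall foundress number with all 23 libraries in edgeR, against 0 and 0 in DESeq2 on the same libraries, 3 in the former with limma-voom, and 0 to 1 in both with a library left out, the 1 without single-foundress replicate 3. At an unadjusted p below 0.05, the 4 tests gave 240, 246, 433 and 266 genes, against 500, 202, 744 and 546 with all 23 libraries, 382, 1018, 1917 and 1090 with limma-voom and 154, 161, 310 and 165 with filterByExpr, and the numeric trend gave 485. With a library left out they gave 187 to 326, 165 to 530, 301 to 1014 and 217 to 507, the highest without single-foundress replicate 5 in the first, 10-foundress replicate 18 in the second and 10-foundress replicate 17 in the last 2.

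Depth limits cycB, Cdk1 and nanos, which had few counts per library, and counting intervals cover counting error only. No paired analysis was possible because no label links pools of different groups. Ratios between Dnmt members were not run, as there was 1 member. The DESeq2 fit of all 23 libraries and the alternatives of the permutation tests, the coefficient of variation and the other correlations were chosen after seeing the data.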
